A study of Ovis aries with 36 samples.

Results

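The comparison described here sets the operated infraspinatus of sheep in the N6W arm against the infraspinatus of the other side of the same animals on the same day. Its members were taken by title: the 3 END and the 3 END-CC libraries of animals 2907, 2908 and 2909, which are 6 of the 36 libraries of the series. The animals were female Swiss Alpine sheep, 2 years old at the start according to the design text. In each of them the infraspinatus tendon was released, left detached for 16 weeks and then reattached, and both muscles were sampled 6 weeks after that repair. N6W animals had no drug during the 16 weeks and then 150 mg of nandrolone decanoate a week until the end. The drug reached the whole animal, so END and END-CC both come from treated sheep, and the END-CC muscle differs from END in having had no tendon surgery. The same animals also gave a sample before release (PRE) and one at repair (TR), both from the side that was operated. The series holds no earlier sample of the other side. Tendon surgery and earlier sampling of the muscle thus cannot be told apart in END against END-CC. For comparison the report uses the END and END-CC libraries of CONTROL, with the same surgery and no drug, and of N22W, with the same surgery and the same weekly dose over all 22 weeks, with 3 animals each. The design text gives 6 animals per arm, of which 3 per arm were analysed here.

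The infraspinatus rotates the shoulder outward and is one of the muscles of the rotator cuff. A muscle whose tendon is detached loses its load and shortens, and such muscles are known for loss of fibre volume, fatty infiltration and a gain in connective tissue that reattachment often does not undo. Nandrolone is an anabolic steroid that acts through the androgen receptor, and its decanoate is released slowly from an injection site. A whole-muscle sample mixes RNA of fibres, fat, connective tissue, vessels and blood cells, and in such samples fewer cells of a type and less RNA per cell cannot be told apart. Genes carry Ensembl identifiers here. None of the 25197 could be paired with a name, so the tissue could not be checked against marker genes, and groups of genes are defined by how and where they differed.

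Values are normalized reads, that is, reads per gene divided by a single size factor for the library. The 6 libraries held 14680437 to 24009698 reads and 15495 to 17349 genes with a value above 0, and the same gene was the most abundant in each, with 27.5 to 31.7% of the reads. The END library of animal 2909 stood apart. Chi-square per gene, a measure of how far 2 libraries differ beyond repeated draws from one library, was 21.0 between the END libraries of 2907 and 2908, and 158 and 146 between each of these and that of 2909. The summed normalized reads of END were 0.664 times those of END-CC in 2909, against 0.913 in 2907 and 0.993 in 2908. The number of genes called, the calls of the named genes and the share with the same sign over release are therefore given with and without this animal. The main lists of genes higher and lower at END, described below, come from the fit with it.

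At the end of the experiment 677 genes differed between the operated and the other side, with 418 higher and 259 lower at END. They are 4.12% of the 16417 genes tested with limma (2.55% higher, 1.58% lower), at an adjusted p under 0.05. Genes higher at END had the wider differences: their median log2 fold change was 1.17 with quartiles of 0.85 and 1.86. Of them 267 (63.9%) differed at least 2-fold. Genes lower at END had a median of −0.53 with quartiles of −0.63 and −0.45, and 16 of them (6.18%) differed at least 2-fold. Over all genes tested the median was 0.03, and 7.76% differed at least 2-fold in either direction. In 338 of the 418 genes every END library lay above every END-CC library, and in 215 of the 259 every END library lay below. Over all genes tested 9.0% and 8.98% were parted in these ways. The choice of genes from these same libraries largely fixes the larger shares among the called genes. All 3 animals had the sign of the mean in 408 of the 418 and in 259 of the 259 genes, a share that the choice of genes from these same pairs largely fixes, and over all genes tested END was higher in all 3 animals for 20.8% and lower for 20.7%.

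The number of genes past the threshold rests on animal 2909. Without it limma called 2 genes, both higher at END (1533 at an unadjusted p under 0.05), without 2907 it called 318 and without 2908 it called 1213. Without the animal term, which pairs both muscles of a sheep, the count was 116, and it was 0 when only the 6 libraries were fitted (2409 at an unadjusted p under 0.05). On recovered reads edgeR called 582 genes, 541 of them among the 677. DESeq2 called 1235 and balanced the directions otherwise, with 593 higher and 642 lower.

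The spread between animals can be read from the number of genes that differed more than 2-fold between the sides, among 12621 genes with a mean of at least 10 normalized reads over the END and END-CC libraries of all arms. It was 633 genes (5.02%) in 2907, 582 (4.61%) in 2908 and 2291 (18.2%) in 2909. In each animal most of these genes were higher at END, with 528, 382 and 1612 of them in that order. The mean for N6W was 9.26% ± 7.70 (SD, n = 3), against 10.1% ± 2.11 in CONTROL and 5.87% ± 1.30 in N22W. Animal 2909 lay above all CONTROL and N22W animals, while 2907 and 2908 lay below all CONTROL animals and within the range of N22W. Two-sided exact permutation tests of the 3 animals against 3 gave p = 1 against CONTROL and p = 0.8 against N22W (both 1 after adjustment over the pair of tests), where the smallest p that 3 against 3 allows is 0.1.

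**Figure D1:**
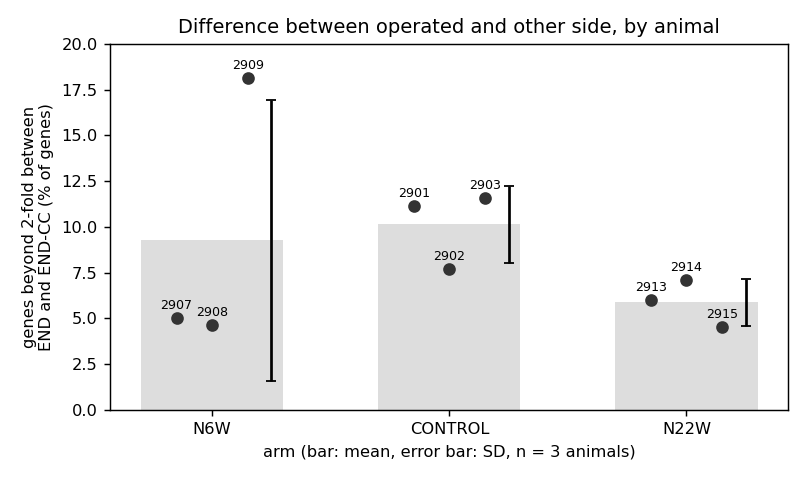
Share of 12621 genes that differed more than 2-fold between END and END-CC (y axis, percent) in each of the 9 animals (points), by arm, with the mean (bar) and SD (error bar). Animal 2909 lies at 18.2%, the other N6W animals at 5.02 and 4.61%.

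Animal 2909 had also differed most over the time of release, before any drug and in other libraries. Its PRE library was the shallowest of the 36, with 11879686 reads, while its TR library held 31396432. In 2908 PRE and TR held 14434983 and 24465200 reads, and in 2907 they held 19974713 and 17934144. Whether depth bears on the changes below was not tested. From PRE to TR 14.9% of the 12621 genes changed more than 2-fold in 2909, 7.19% in 2908 and 6.77% in 2907. Across the genes, which are not independent replicates, its difference between sides and its change from PRE to TR had a Pearson r of 0.69. The same r was 0.21 within 2908 and 0.08 within 2907. Taken between animals, the difference between sides of 2907 had an r of 0.48 with the change over release of 2909 and of 0.31 with that of 2908. That of 2909 had 0.41 with the change of 2908, and the other pairs ran from −0.12 to 0.20. The difference between sides of 2907 thus had a higher r with the release of either other animal than with its own. The differences between sides of 2 N6W animals had an r of 0.54 (2907 with 2909), 0.31 (2908 with 2909) and 0.27 (2907 with 2908), against 0.61 to 0.66 between CONTROL animals and 0.33 to 0.57 between N22W animals.

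Reading each N6W animal at genes it had no part in choosing separates size from direction. The 208 genes higher and 110 lower at END in a fit without 2907 had the same sign in 2907 in 84.1% and 96.4% of cases, with medians of 0.75 and −0.32. The 709 higher and 504 lower genes of the fit without 2908 had the same sign in 2908 in 73.1% and 81.3%, with medians of 0.23 and −0.14. Over all genes tested END was higher for 47.0% in 2907 and 48.6% in 2908, and lower for 50.5% and 48.5%. The 2 genes called without 2909 were both higher at END in 2909. These fits share the spread per gene estimated from libraries of all arms, and the animal read had left the fit.

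Among the genes higher at END, the 2 with the highest log2 fold change were ENSOARG00000011924 and ENSOARG00000015526. ENSOARG00000011924 had 3.37, 23.3 and 449 normalized reads at END in animals 2907, 2908 and 2909, and 0, 1.24 and 7.30 at END-CC. The value at END of 2907 lay below the END-CC value of 2909, so the groups overlapped, although each animal was higher at END. Behind the END-CC values stood 0, 1 and 5 reads. Its log2 fold change on values plus 1 was 3.78 (SE 1.08, adjusted p = 0.0476 in limma), and it did not pass without 2909 (2.78) or without 2908 (3.94). It was 4.60 without 2907, 2.71 with a pseudocount of 5, where it did not pass, and 5.18 in edgeR.

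ENSOARG00000015526 had 20.2, 299.7 and 182 normalized reads at END in the same order of animals, and 5.33, 17.3 and 2.92 at END-CC. Every END library lay above every END-CC library, and the END values differed among animals by more than 10-fold. The log2 fold change was 3.77 (SE 1.04, adjusted p = 0.0446 in limma), and it did not pass without 2909 (2.89) or without 2908 (3.64), while it was 4.79 without 2907. Before release, the same muscles had held 84.5, 7.83 and 38.8 normalized reads of this transcript, and at repair 28.6, 91.7 and 273. In 2907 the value thus went down from PRE to TR and END, while it went up in 2908 and 2909.

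Among the genes lower at END, ENSOARG00000010633 and ENSOARG00000019026 had the lowest log2 fold changes. ENSOARG00000010633 had 9.26, 6.84 and 11.3 normalized reads at END in animals 2907, 2908 and 2909, and 25.3, 59.4 and 86.1 at END-CC. The groups did not overlap, and the END values lay close together while the END-CC values spread. The log2 fold change was −2.38 (SE 0.42, adjusted p = 0.00872 in limma), with −2.15 without 2909, where it did not pass. This gene was lower at END in the other arms as well, by −2.16 in CONTROL (SE 0.42, adjusted p = 0.00205 in limma) and by −1.66 in N22W (SE 0.42, adjusted p = 0.0452).

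ENSOARG00000019026 had 259, 114 and 32.5 normalized reads at END and 1063, 225 and 436 at END-CC. The groups overlapped, since END in 2907 lay above END-CC in 2908, and each animal was lower at END. The log2 fold change was −2.24 (SE 0.60, adjusted p = 0.0410 in limma), which did not pass without 2909 (−1.51) or 2907 (−2.35) and was −2.87 without 2908. It had fallen over release in the same animals, from 359 ± 230 at PRE to 68.8 ± 84.2 at TR (SD, n = 3), a fall with an adjusted p of 0.00632 in limma and a log2 change of −2.92 (SE 0.60). In CONTROL and N22W the difference between sides was −1.94 (SE 0.60, adjusted p = 0.0279) and −2.40 (SE 0.60, adjusted p = 0.0445).

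The 2 genes called without animal 2909 are outside that choice of extremes and were picked after their values were seen. ENSOARG00000016899 had 48.8, 31.5 and 119 normalized reads at END in 2907, 2908 and 2909, and 5.33, 7.43 and 8.76 at END-CC. Every END library lay more than 3-fold above every END-CC library, and the log2 fold change was 2.85 (SE 0.33, adjusted p = 0.000166 in limma), the lowest adjusted p of all genes in the comparison. It had risen over release, from 22.1 ± 8.02 at PRE to 54.9 ± 25.9 at TR (SD, n = 3), with an adjusted p of 0.0320 in limma and a log2 change of 1.20 (SE 0.33). The other side also moved away from PRE, with a fall to 7.17 ± 1.72 at END-CC (log2 fold change −1.47, SE 0.33, adjusted p = 0.00910). In CONTROL it ranged from 49.9 to 91.0 at END and from 13.1 to 18.4 at END-CC (adjusted p = 0.000730 in limma). In N22W the END values of 32.0 to 44.7 also lay above the END-CC values of 9.85 to 18.6 (adjusted p = 0.0470 in limma).

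ENSOARG00000018362, a transcript of low level, had 5.89, 23.3 and 6.63 normalized reads at END and 0, 1.24 and 2.92 at END-CC. These values stand on 7, 17 and 10 reads at END and on 0, 1 and 2 at END-CC, and the groups did not overlap. Its log2 fold change was 2.39 (SE 0.44, adjusted p = 0.00975 in limma). The size depends on the setting: it was 1.29 with a pseudocount of 5 and 3.11 without 2909, where it passed, and 4.22 in edgeR without 2909, where it did not. From 9.51 ± 1.64 at PRE the level went to 3.14 ± 0.87 at TR (SD, n = 3), lower in each of the 3 animals, with a log2 change of −1.35 (SE 0.44) that did not pass (adjusted p = 0.0620 in limma). At the end limma gave a log2 change of 0.06 for END against PRE (adjusted p = 0.960) and of −2.34 for END-CC against PRE (adjusted p = 0.00289). END lay below PRE in 2907 and 2909 and above it in 2908, while END-CC lay below PRE in all 3 animals. In CONTROL and N22W its difference between sides was 0.63 and 0.48 and did not pass (adjusted p = 0.326 and 0.580), and the test of N6W against either arm gave 1.76 (SE 0.62) and 1.91 (SE 0.62), both with an adjusted p of 1.00.

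**Figure D2:**
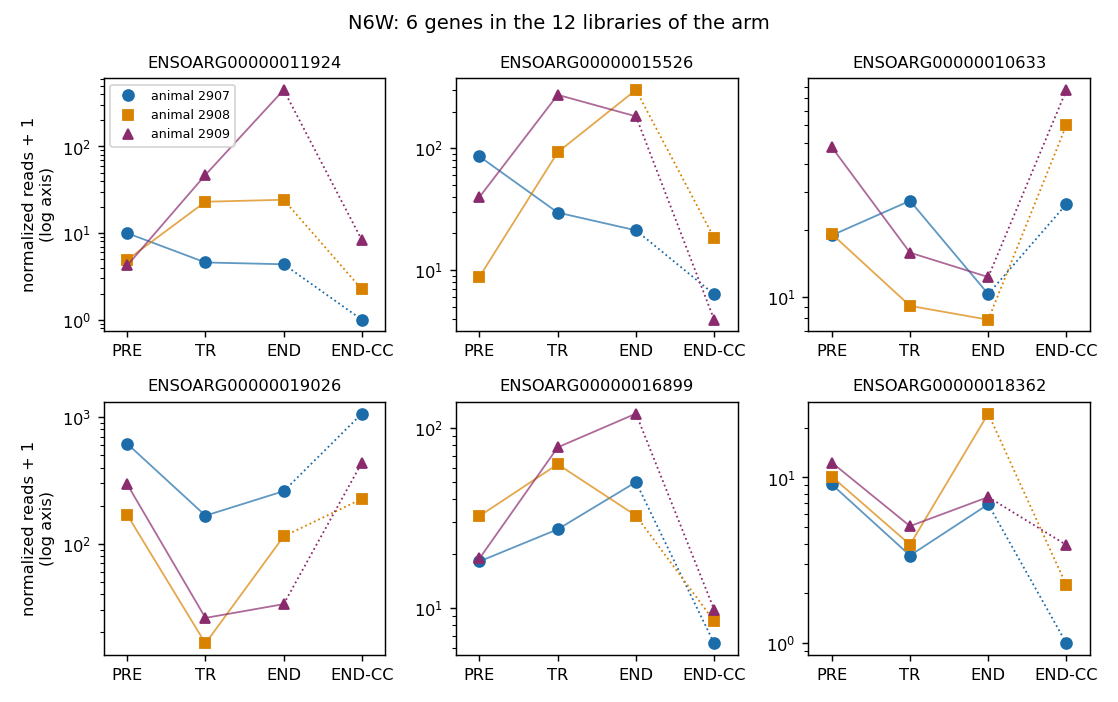
Normalized reads plus 1 (log axis) of the 6 named genes in the 12 N6W libraries, by sample type on the x axis and animal by colour and symbol; solid lines join samples of the operated muscle and dotted lines lead to the other side. ENSOARG00000016899 has END values of 31.5 to 119 above END-CC values of 5.33 to 8.76.

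Both groups of genes differed in transcript level. Genes lower at END were abundant, with a median of 513 normalized reads over the 6 libraries, against 85.4 for genes higher at END and 82.5 for all genes tested. Among genes above 1000 normalized reads 4.45% were lower and 1.33% higher, and among those from 10 to 100 only 0.389% were lower and 3.60% higher. The typical error of the estimate differed with them: the median SE was 0.13 for the genes lower at END, 0.29 for the genes higher at END and 0.23 for all. In each END-CC library the 418 genes together held 0.314 to 0.351% of the summed values. At END they held 0.668% in 2907, 0.490% in 2908 and 1.77% in 2909. The choice of genes from these same libraries largely fixes that the share was larger at END. At PRE the 418 genes had held 0.561%, 0.466% and 0.489% in the same order of animals. PRE thus lay between END-CC and END in each animal, nearer to END in 2907 and 2908 and nearer to END-CC in 2909. The genes lower at END held 1.07%, 1.10% and 1.07% at END and 1.29%, 1.36% and 1.38% at END-CC. At PRE they had held 1.28%, 1.25% and 1.22%.

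**Figure D3:**
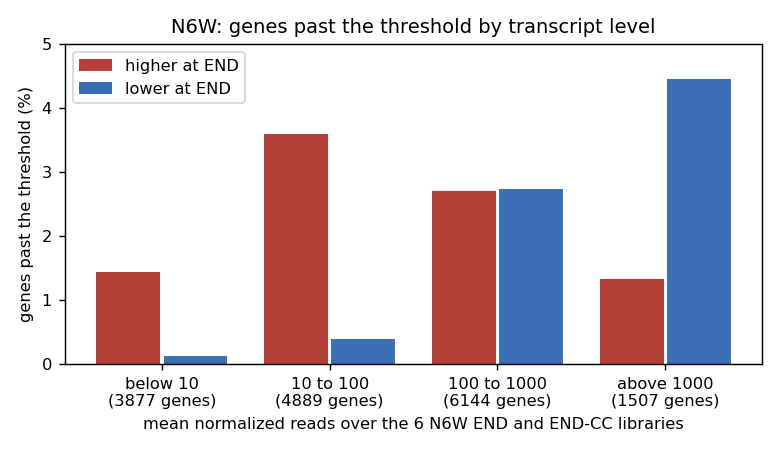
Share of genes past the threshold (y axis, percent) in 4 classes of mean normalized reads over the 6 libraries (x axis), for genes higher (red) and lower (blue) at END in N6W. The share of lower genes is 0.129% in the lowest class and 4.45% in the highest.

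Where the 677 genes had stood earlier was read from the PRE and TR libraries of the same sheep, which are none of the 6 compared. Most lay on the same side of PRE at repair already: 360 of the 418 genes higher at END (86.1%) had a positive change from PRE to TR, and 233 of the 259 lower genes (90.0%) a negative one. Over all genes tested 53.4% of these changes were positive and 46.5% negative. The median change from PRE to TR was 0.53 and −0.28, against 0.04 for all genes. Limma called 126 of the 418 genes as raised over release (30.1%, against 3.76% of all genes tested) and 50 of the 259 as lowered (19.3%, against 3.22%). In the opposite direction it called 5 and 0. One fit of all 36 libraries gave the spread of each gene for both comparisons, so passing in one is not independent of passing in the other.

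The animals differed in this too. Among the 418 genes the median change from PRE to TR was 0.16 in 2907, 0.60 in 2908 and 0.97 in 2909, and 58.6%, 82.1% and 91.4% of the genes were positive, against 45.8%, 50.7% and 55.5% of all genes tested. Among the 259 genes the medians were −0.06, −0.27 and −0.54, with 57.9%, 85.7% and 96.1% negative, against 51.9%, 47.9% and 43.7% of all genes. In 2907 the 418 genes went both ways, with quartiles of −0.25 and 0.61. At repair 63 of them were more than 2-fold above PRE and 21 more than 2-fold below. Of the 16417 genes tested 1138 were above and 1080 below in this animal, so the genes below were no larger a share among the 418.

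A difference between sides holds a change on either side. Values relative to PRE share libraries with the comparison itself and are given only as a description. For the 418 genes the median log2 change from PRE was 0.65 at END and −0.46 at END-CC, and for the 259 genes it was −0.25 at END and 0.29 at END-CC, while all genes tested had 0.02 and −0.02. The medians of both sides lay away from PRE in opposite directions, which the choice of genes by END against END-CC partly fixes. Of the 418 genes limma called 127 as higher at END than at PRE (3.16% of all genes tested were) and 84 as lower at END-CC than at PRE (3.79%). Of the 259 it called 35 as lower at END (3.03% of all genes) and 69 as higher at END-CC (4.39%). From TR to END the medians were 0.05 and 0.04, and limma called 1 of the 677 genes, against 0.0853% of all genes tested.

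By animal, END lay above PRE for the 418 genes with medians of 0.33 in 2907, 0.27 in 2908 and 1.25 in 2909, and END-CC lay below with medians of −0.66, −0.29 and −0.34. In 2907 and 2908 END-CC thus lay as far from PRE as END or further, and in 2909 END lay further from it. No sample of the other side was taken at PRE, so a standing difference between sides and a change over 22 weeks cannot be told apart on that side.

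**Figure D4:**
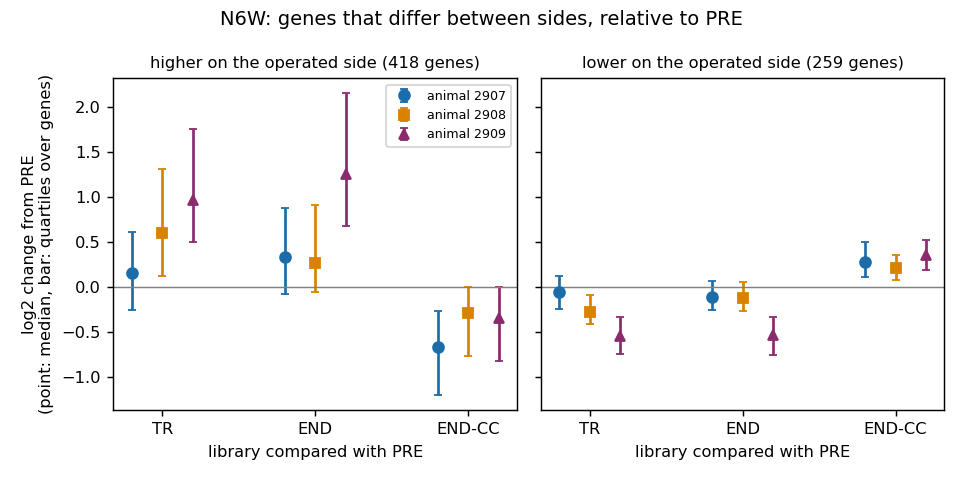
Median log2 change from PRE (points, with quartiles over genes as bars) at TR, END and END-CC in each N6W animal, for the 418 genes higher (left) and the 259 genes lower (right) at END. In all 3 animals the END-CC medians lie on the other side of 0 from the END medians.

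The same comparison was made in both other arms, whose libraries share none with N6W. No gene passed the test of a different difference between sides, neither for N6W against CONTROL nor against N22W: limma, edgeR and DESeq2 each called 0 genes. At an unadjusted p under 0.05 limma had 672 genes against CONTROL (4.09% of those tested) and 603 against N22W (3.67%). The median SE of such a difference was 0.33 on the log2 scale, so a gene that missed the threshold is not shown to have differed alike in both arms. By itself CONTROL gave 1564 genes higher and 1620 lower at END (9.53% and 9.87%), and N22W gave 135 and 128 (0.822% and 0.78%). These counts are larger and smaller than the 418 and 259 of N6W, and a count past a threshold is no test between arms.

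Genes past the threshold in N6W leaned the same way in the other arms. Of the 418 genes 408 (97.6%) were higher at END in CONTROL and 404 (96.7%) in N22W, with medians of 1.02 and 0.63. Of the 259 genes 258 (99.6%) were lower in CONTROL and 256 (98.8%) in N22W, with medians of −0.49 and −0.35. Over all genes tested 54.4% were higher and 45.5% lower in CONTROL, and 55.0% and 44.9% in N22W. Limma called 289 of the 418 (69.1%) and 197 of the 259 (76.1%) in the same direction in CONTROL, which are 18.5% and 12.2% of the CONTROL lists. In N22W it called 56 (13.4%) and 33 (12.7%), which are 41.5% and 25.8% of the N22W lists. No gene was called in opposite directions. The lists were chosen for large values in N6W, and one fit gave the spread of each gene for all lists.

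**Figure D5:**
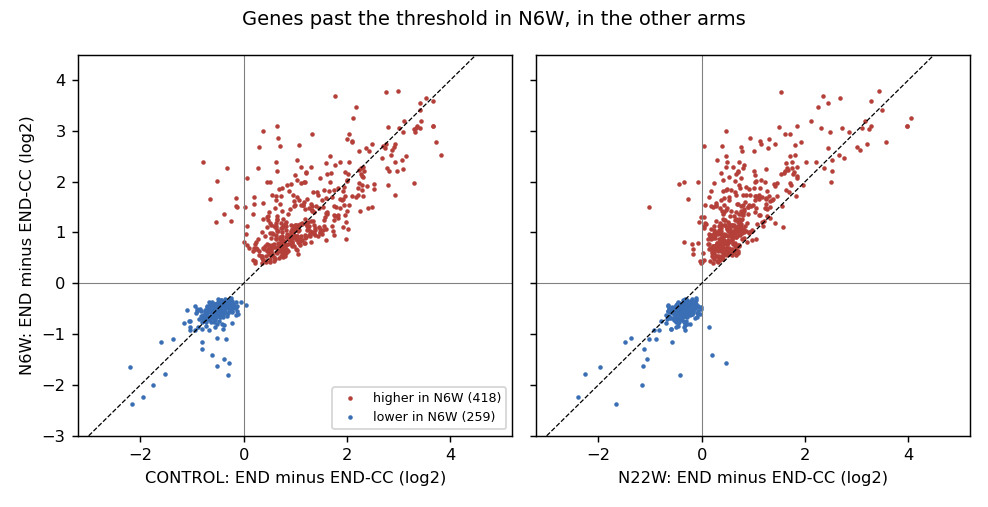
Log2 difference between END and END-CC in N6W (y axis) against that in CONTROL (left) and N22W (right) for the 677 genes past the threshold in N6W, red for the 418 higher and blue for the 259 lower genes, with the line of equal values dashed. In CONTROL 408 of the 418 and 258 of the 259 genes lie on the same side of 0.

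Taken the other way, genes chosen in an arm without nandrolone show each N6W animal without its own choice. At the 1564 genes higher at END in CONTROL, where their median was 0.99, the medians were 0.46 in 2907, 0.21 in 2908 and 0.94 in 2909, and 87.4%, 73.0% and 94.8% of the genes were higher at END. At the 1620 lower genes, with a median of −0.55 in CONTROL, they were −0.27, −0.14 and −0.64, with 94.1%, 80.9% and 96.2% lower at END. Over all genes tested 47.0%, 48.6% and 54.0% were higher at END in the same order of animals, and 50.5%, 48.5% and 44.7% lower. The 135 genes higher in N22W, with a median of 1.17 there, had medians of 0.64, 0.33 and 1.33 in the 3 N6W animals. Animal 2909 had differences near the size found in the arm where the genes were chosen, while those of 2907 were smaller and those of 2908 the smallest of the 3. The medians in CONTROL and N22W come from the values that chose the genes, which draws them away from 0. A smaller median in an N6W animal thus does not by itself show a smaller difference than in those arms.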

How the data were processed

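Total RNA of 36 libraries was measured, of which 6 are compared here. Per the labels' protocols, stranded libraries were made after depletion of ribosomal RNA, from RNA that had passed a quality limit. Per the submitters' processing notes, STAR 2.3.0e, R 3.0.2 and the assembly Oar v3.1 were used; how reads were counted and scaled is not stated in the sources at hand. The deposited signal per gene was whole multiples of a single step per library (0.663 to 1.46 in the 6 libraries), within 0.1 read for 100.0% of values up to 100 reads, and was read as reads divided by a size factor. Identifiers were set against the 35057 entries of a RefSeq gene table (assembly ARS-UI_Ramb), of which 0 carry an Ensembl identifier.

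Limma 3.58.1 with a mean-dependent prior was run in R 4.3.3 on log2(value + 1) for genes with a median of at least 0.5, on all 36 libraries, with a mean per arm and time point and the animal as a block. Adding 1 draws the fold changes of genes of low level towards 0. Two-sided p values were adjusted over all 16417 genes after Benjamini and Hochberg. In CONTROL and N22W the 12 libraries from before and at repair, which had been scaled apart as judged from the values, enter through the spread alone. The pairing comes from the animals: deviations of END and END-CC from their group means had an r of 0.50, 0.36 and 0.31 within animals 2907, 2908 and 2909. EdgeR 4.0.16 and DESeq2 1.42.0 were run on recovered reads. The scripts were tested on simulated data, in which limma made more false calls than its threshold allows and edgeR did not. The simulated reads were drawn with the dispersion trend that edgeR had estimated, so this test cannot rank limma and edgeR on these data.

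Members and tests were chosen with earlier results of these data known. The 4 genes named first are the 2 highest and 2 lowest log2 fold changes among genes past the threshold with the same sign in all 3 animals and a mean of at least 10 over the 6 libraries. Lists of marker and pathway genes could not be used without names. Limma p values rest on a spread per gene pooled over all 36 libraries, with 3 animals an arm. They do not measure the spread of the 3 N6W pairs alone. A limma fit of those 6 libraries gave a smallest adjusted p of 0.246.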

Additional observations from a re-analysis of the deposited data

How the results depend on the processing

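The count of 677 genes that differed between the sides in N6W was within 1.5 times its size with a pseudocount of 0.5 or 5, a median of at least 10, TMM scaling, edgeR and a fit of the END and END-CC libraries of all arms (469 to 821 genes). It was 413 without a filter on low values, 116 without the animal as a block, 0 with only the libraries compared and 1235 with DESeq2. With 1 animal left out it ran from 2 (without 2909) to 1213 (without 2908), and was 318 without 2907. A like count need not mean the same genes. Of the 677 genes, 671 were also called with TMM scaling and 600 with DESeq2. The fit of the END and END-CC libraries of all arms called 327 of them, that without 2908 called 541 and that without 2907 called 242. EdgeR without 2909, added after the results had been seen, gave 0 genes (1183 at an unadjusted p under 0.05). Pairing the muscles by animal thus raises the count from 116 to 677. The difference of N6W from CONTROL and from N22W gave 0 genes in all settings planned for it, also with 1 animal left out.

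The share of called genes with the same sign over release, 87.6% for both directions together, ran from 50% (without 2909, over 2 genes) to 94.7% (without 2907) with 1 animal left out. None of the 4 genes named by rule changed sign. Leaving out 1 animal ended the call of ENSOARG00000010633 in 1 of 3 cases and of the other 3 in 2 of 3 cases. Other settings ended it in 2 of 11 cases for ENSOARG00000010633, 6 of 10 for ENSOARG00000011924, 4 of 11 for ENSOARG00000015526 and 5 of 11 for ENSOARG00000019026. ENSOARG00000016899 and ENSOARG00000018362 passed with any N6W animal left out in limma, where passing without 2909 was fixed by how they were chosen. Neither passed in the fit of the 6 libraries alone or in edgeR without 2909. The cause was not tested. At END-CC no more than 5 reads stood behind any value of ENSOARG00000011924 and 2 behind any of ENSOARG00000018362. Behind those of ENSOARG00000015526 in 2909 and 2907 stood 2 and 4 reads, and behind those of ENSOARG00000016899 4 to 6. Low read counts thus limit the precision of these fold changes, and whether depth or transcript level lay behind the counts was not tested.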

Other observations

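Of the 677 genes, 124 of the 418 higher and 60 of the 259 lower genes were called in N6W and in neither other arm. Their medians in N6W were 1.29 and −0.54, those in CONTROL 0.55 and −0.31 and those in N22W 0.44 and −0.23, so that 115 of the 124 were higher at END in CONTROL and 115 in N22W, and 59 and 57 of the 60 lower. At an unadjusted p under 0.05 the difference between arms had 30 of the 124 genes against CONTROL and 35 against N22W, and 5 and 10 of the 60, where all genes tested had 4.09% against CONTROL and 3.67% against N22W. Genes called in N6W and not in the other arms are chosen for a difference between arms, so these counts are a description. None passed after adjustment. Of the 16417 genes tested 51 were called as higher and 31 as lower at END in all 3 arms. Among the 418 genes 3 had no read in any of the 3 END-CC libraries of N6W. This is a lower share than that of all genes tested, 268 of 16417.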
